A study of Mus musculus with 2 samples.

Results

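The S100 genes are a family of vertebrate genes for small calcium-binding proteins, and 10 of them were followed here among the 32285 genes measured: S100a1, S100a4, S100a6, S100a8, S100a9, S100a10, S100a11, S100a13, S100a16 and S100b. They were chosen by symbol, with no measured value in the rule. S100 proteins carry a pair of EF-hand motifs, which bind calcium in most members. They mostly work as dimers, and most bind partner proteins such as annexins and myosin when calcium rises. Some are secreted, and S100a8 and S100a9 together form calprotectin, a major cytosolic protein of neutrophils. In the lens, where calcium balance is tied to transparency, epithelial cells at the equator withdraw from the cell cycle and differentiate into fiber cells filled with beta and gamma crystallins.

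The cells came from the lens epithelium of wild-type C57BL/6N mouse pups at postnatal day 2 (P2), in 2 pools of pups that serve as the replicates, with no treatment and no mutant. The capsule with its attached epithelium was peeled from the fiber mass after the vascular coat had been cleaned away, so mature fiber cells were largely left behind and vessel cells are those that remained attached. Single-cell RNA sequencing (scRNA-seq) gave unique molecular identifier (UMI) counts, each UMI marking 1 captured transcript. The pools held 12314 and 9425 barcodes, of which 10658 and 7836 were kept, and 27 barcode sequences occurred in both pools.

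Cells were assigned by fixed markers to 10100 and 7351 lens cells, 325 and 212 endothelial cells, 132 and 169 mural cells, and 22 and 25 macrophages in pools 1 and 2. The gates used the markers themselves, so marker levels describe the classes and do not test their labels. All 10 endothelial, all 10 mural and all 10 macrophage markers were detected in their own cells in each pool, the endothelial markers summed in lens cells to at most 0.606% of their endothelial level, and the mural and macrophage markers to less. Of the lens genes outside the gate, Pax6 stood at 332 and 299 counts per 1000000 UMIs (CPM) in lens cells and at most 14.3 CPM in the other types, Cdh1 at 87.9 and 98.6 CPM and at most 11.5 CPM, and Foxe3 was low throughout, at 3.53 and 4.97 CPM in lens cells and at most 2.39 CPM elsewhere. Median depth was 6248 and 8105 UMIs in lens cells and 3042 to 4452 in the other types. The upper limits on genes and UMIs per barcode left out 292 and 401 lens and 73 and 60 endothelial barcodes. Those endothelial barcodes had a median of 20339 and 26419.5 UMIs. Endothelial UMIs came to 5683929 without the limits and 2386630 with them, whereas mural and macrophage counts were unchanged. Free lens RNA was gauged by the alpha crystallins Cryaa and Cryab, which stood at 2.10% to 4.65% of their lens level in the other types. The gate kept cells of these types under 1% of UMIs from both genes, so these values were capped.

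Of the 10 genes, 9 lie on chromosome 3 and S100b lies on chromosome 10 (76253853 to 76261159, plus strand, mm10). On chromosome 3, S100a1 (90511034 to 90514392, minus strand) and S100a13 (90514435 to 90524581, plus strand) are transcribed away from each other with 42 bases between their annotated starts. They are followed by S100a16 (90537254 to 90543151), S100a4 (90603771 to 90606045), S100a6 (90612882 to 90624181) and S100a8 (90668978 to 90670035) on the plus strand and by S100a9 (90692632 to 90695721) on the minus strand. S100a11 (93520488 to 93526287) and S100a10 (93555080 to 93564643), both on the plus strand, form a second group. The coordinates are those of the GENCODE vM21 annotation.

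The sequences before the starts of S100a4, S100a16 and S100a6, the members that rose with beta and gamma crystallins in lens cells, and the stretch that S100a1 and S100a13 share are shown from the RefSeq promoter table (build GRCm38.p6, plus strand, 5′ to 3′). Capitals mark a TATAAA match.
S100a4, chr3:90603520-90603769: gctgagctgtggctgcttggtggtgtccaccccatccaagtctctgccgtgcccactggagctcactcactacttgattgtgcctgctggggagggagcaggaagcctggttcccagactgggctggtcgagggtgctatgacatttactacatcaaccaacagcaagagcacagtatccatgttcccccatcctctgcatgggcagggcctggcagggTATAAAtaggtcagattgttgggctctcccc
S100a16, chr3:90537004-90537253: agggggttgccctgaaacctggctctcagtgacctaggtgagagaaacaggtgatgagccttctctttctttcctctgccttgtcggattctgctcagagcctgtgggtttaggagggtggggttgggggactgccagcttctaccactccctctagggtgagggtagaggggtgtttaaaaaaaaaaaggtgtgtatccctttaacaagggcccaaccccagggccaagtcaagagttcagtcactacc
S100a6, chr3:90612644-90612881: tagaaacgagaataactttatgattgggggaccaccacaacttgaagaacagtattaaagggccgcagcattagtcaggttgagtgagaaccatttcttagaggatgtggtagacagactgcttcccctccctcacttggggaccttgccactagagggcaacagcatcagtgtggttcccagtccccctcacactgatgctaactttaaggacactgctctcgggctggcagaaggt
Between S100a1 and S100a13, chr3:90514393-90514434: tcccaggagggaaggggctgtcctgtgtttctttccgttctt

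Promoter windows of 300 bases, 250 before and 50 after a start, were found for S100a1, S100a4, S100a6, S100a8, S100a9, S100a11, S100a13, S100a16 and S100b. Both strands were searched for TATAAA, the core of the TATA box, TGCTGA, a part of the Maf recognition element, and TGACTCA, the AP-1 site. TATAAA occurred in the windows of S100a4, S100a8 and S100a9 and in 13.6% of all 32851 windows. TGCTGA occurred in those of S100a4 and S100a6, outside the printed stretches, and in 19.5% of all windows. TGACTCA occurred 2 times in the window of S100a11 and at least once in 5.202% of all windows. S100a4 and S100a16, which had like profiles in lens cells, shared none of the 3 motifs.

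Levels are given as CPM, computed from the UMIs of a gene and of all genes in the summed cells of a type in 1 pool. Differences were tested with edgeR's quasi-likelihood test on those sums with pool as a block, and a gene was called at an adjusted p under 0.05 over all genes tested. Fold changes from this test are on trimmed-mean-scaled (TMM) values and given on the log2 scale ± SE, with n = 2 pools. S100a8, S100a9 and S100b had too few counts to be tested, so 7 of the 10 genes entered each comparison. Cells of 1 pool come from the same animals and are not replicates.

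The 7 tested genes divided the cell types between them. S100a13 and S100a16 were highest in endothelial cells, S100a11 was highest in mural cells, and S100a6 was high in mural and lens cells. S100a1 was higher in the other 3 types than in lens cells. S100a4 was higher in lens cells than in endothelial and mural cells, and S100a10 stood at like levels in lens and endothelial cells. Between endothelial and lens cells, 3 members were higher and 3 lower among 9528 genes of which 63.2% were called (29.1% higher, 34.1% lower). Between mural and lens cells, 3 were higher and 2 lower, with 51.9% of genes called (25.8% higher, 26.2% lower), and between macrophages and lens cells, 2 were higher and 4 lower, with 35.6% called, 15.7% higher and 19.9% lower. The median log2 fold change of the 7 members was -0.11, 0.27 and -1.67 in these comparisons, beside -0.11, -0.08 and -0.46 over all genes. With S100a16, at 0 UMIs in macrophages, set to its bound, the last median was -0.59. The 3 comparisons share the same lens sums.

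**Figure D1:**
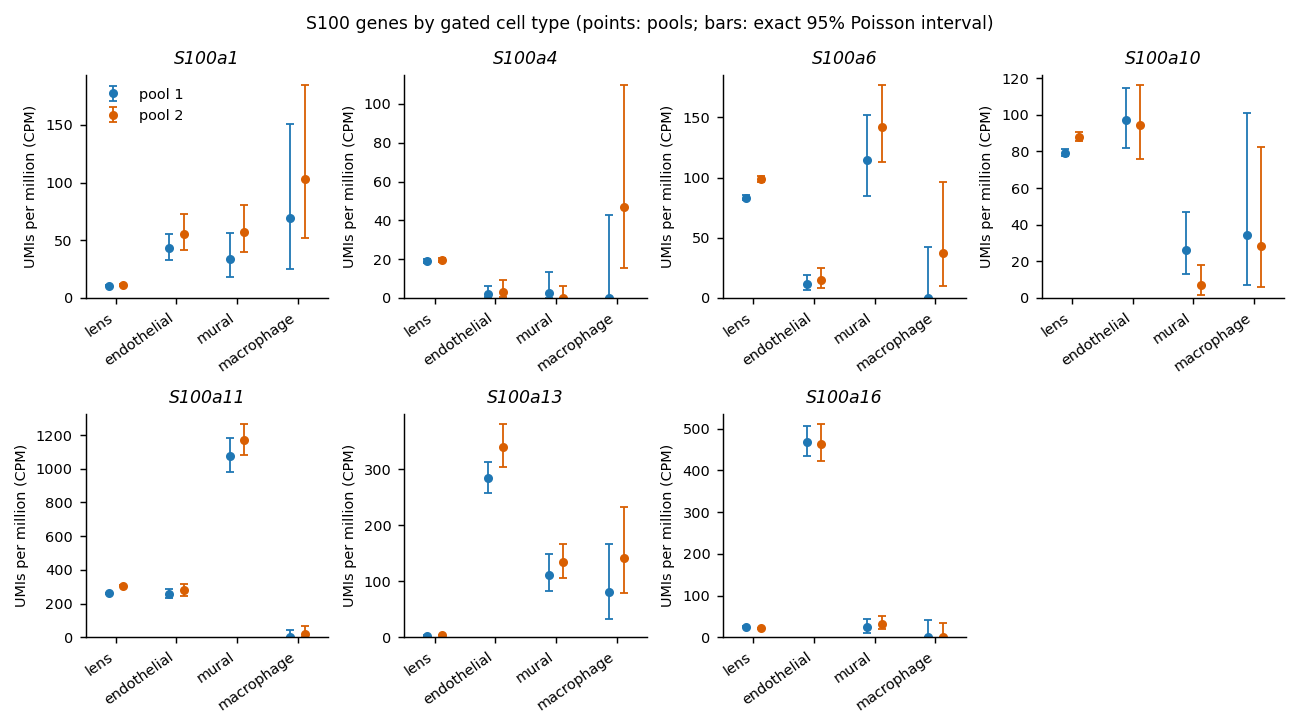
CPM of the 7 tested S100 genes in lens, endothelial, mural and macrophage cells; each point is 1 pool and bars are exact 95% Poisson intervals, which cover counting error only. S100a16 stood at 469 and 464 CPM in endothelial cells and at most 33.0 CPM elsewhere, S100a11 at 1076 and 1171 CPM in mural cells, and the macrophage intervals, from 22 and 25 cells, are wide.

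S100a16, a widely expressed member, was the most abundant of the family in endothelial cells. It stood at 469 CPM in pool 1 and 464 CPM in pool 2 there, against 24.7 and 22.2 CPM in lens cells and 23.9 and 33.0 CPM in mural cells. The endothelial pools lay far above every other type and the lens and mural ranges overlapped. The endothelial level exceeded the lens level by a log2 fold change of 4.00 ± 0.12 (adjusted p = 1.45e-20, edgeR), and mural cells stood below endothelial cells (log2 fold change -3.92 ± 0.22, adjusted p = 6.01e-14, edgeR; 34.1% of all genes called, 18.4% higher and 15.7% lower). Mural and lens levels did not pass the test (0.09 ± 0.29, adjusted p = 0.835, edgeR). Macrophages held 0 of 193158 UMIs. Against a floor of 3 UMIs over both pools, or 15.5 CPM, S100a16 was at least 30.0-fold lower in macrophages than in endothelial cells and at least 1.51-fold lower than in lens cells.

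S100a13, a member released without a signal peptide together with fibroblast growth factor 1, showed the widest range between vessel and lens cells. Its level was 284 and 341 CPM in endothelial cells, 112 and 134 CPM in mural cells, 80.7 and 141 CPM in macrophages, and 3.16 and 4.05 CPM in lens cells. The lens pools lay below all others without overlap, whereas the mural and macrophage ranges overlapped. Relative to lens cells the log2 fold change was 6.13 ± 0.14 in endothelial cells, 4.86 ± 0.21 in mural cells and 4.73 ± 0.47 in macrophages (adjusted p = 7.92e-24, 5.66e-17 and 4.02e-09, edgeR). Mural cells stood below endothelial cells by a log2 fold change of -1.28 ± 0.16 (adjusted p = 3.46e-07, edgeR). The few S100a13 UMIs in lens cells amounted to 1.11% and 1.19% of the endothelial level, where the summed endothelial gate markers stood at 0.606% and 0.564%. The lens gate allowed under 3 of these markers per cell, so their level there was capped and is no measure of free endothelial RNA. Whether the lens UMIs of S100a13 were free endothelial RNA was not tested.

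The share of cells with at least 1 UMI was also highest in endothelial cells for both genes. S100a16 was detected in 69.5% and 71.7% of endothelial cells, in 11.2% and 12.3% of lens cells, and in 0 of 22 and 0 of 25 macrophages, which allows shares of up to 13.6% and 12%. S100a13 was detected in 60.6% and 67.5% of endothelial cells and in 2.21% and 3.33% of lens cells, although lens cells were the deeper. With every cell thinned to 2000 UMIs the S100a13 shares were 46.2% and 42.7% in endothelial and 0.602% and 0.872% in lens cells, and the S100a16 shares 60.9% and 55.1% in endothelial and 3.38% and 2.99% in lens cells. Endothelial cells with a UMI of S100a13 and of S100a16 overlapped about as often as the product of the shares gives: 69 of 238 thinned cells in pool 1 carried both (29.0%, beside 28.2%) and 37 of 178 in pool 2 (20.8%, beside 23.5%).

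S100a11, which binds annexin A1, was the most abundant member in lens cells and in mural cells. It reached 1076 and 1171 CPM in mural cells, 262 and 306 CPM in lens cells, 259 and 281 CPM in endothelial cells, and 0 and 18.8 CPM in macrophages, from 0 and 2 UMIs. Mural pools lay above all others, and the lens and endothelial ranges overlapped in CPM. The mural level exceeded the lens level by a log2 fold change of 1.75 ± 0.10 and the endothelial level by 2.13 ± 0.11 (adjusted p = 1.38e-14 and 1.01e-14, edgeR). On TMM-scaled values endothelial cells stood below lens cells (-0.38 ± 0.10, adjusted p = 0.00214, edgeR), but the within-pool log2 ratios of CPM were only -0.02 and -0.12, and the call was lost with cells thinned to 2000 UMIs (adjusted p = 0.117, edgeR) and without the crystallin ceiling on the gate (adjusted p = 0.259, edgeR). With no upper limit on genes and UMIs the value was -0.70, and the endothelial barcodes above that limit stood at 170 and 180 CPM. The macrophage level was 0.0366 of the lens level, with an exact 95% counting interval of 0.00443 to 0.132. S100a11 was detected in 93.2% and 92.3% of mural, 80.5% and 88.2% of lens and in 0 of 22 (up to 13.6%) and 2 of 25 macrophages. With every cell thinned to 2000 UMIs the shares were 84.8% and 89.6% of mural, 42.2% and 45.1% of lens and 43.3% and 42.7% of endothelial cells.

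S100a6 (calcyclin), whose partners include the calcyclin-binding protein Cacybp and annexins, was shared by mural and lens cells. Its level was 115 and 142 CPM in mural cells, 83.1 and 99.1 CPM in lens cells, and 11.7 and 15.01 CPM in endothelial cells. Both endothelial pools lay below both pools of either other type. Endothelial cells were lower than lens cells by a log2 fold change of -3.09 ± 0.23 (adjusted p = 2.16e-12) and lower than mural cells, with mural over endothelial at 3.36 ± 0.28 (adjusted p = 1.89e-10, both edgeR). The mural excess over lens cells was 0.27 ± 0.17 (adjusted p = 0.205, edgeR), and it passed without the crystallin ceiling on the gate (0.41, adjusted p = 0.0490, edgeR).

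S100a10, the light chain that joins annexin A2 in a heterotetramer, followed a different order. Lens cells held 79.3 and 88.0 CPM and endothelial cells 96.99 and 94.3 CPM, a difference of -0.11 ± 0.15 on TMM-scaled values that did not pass the test (adjusted p = 0.542, edgeR) and that turns sign between the CPM and the TMM scale. Mural cells held 26.2 and 6.95 CPM, from 11 and 4 UMIs. They lay below lens cells (-2.70 ± 0.32, adjusted p = 3.97e-08) and below endothelial cells (-2.59 ± 0.35, adjusted p = 7.71e-07, both edgeR). Macrophages held 3 UMIs in each pool, which gave 34.6 and 28.2 CPM and a ratio to lens cells of 0.373 (exact 95% counting interval 0.137 to 0.811). The macrophage difference from lens cells was called by edgeR (adjusted p = 0.0158) and not by DESeq2 (adjusted p = 0.0601). Mural and macrophage levels of S100a10 did not pass the test for a difference (macrophage over mural 1.03 ± 0.81, adjusted p = 0.393, edgeR), and the sign of that difference turned with thinning (-0.47).

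S100a1, a member best known as a regulator of calcium handling in muscle, was low in lens cells and higher in the other types. It stood at 10.8 and 11.4 CPM in lens cells, 43.3 and 55.7 CPM in endothelial cells, 33.4 and 57.3 CPM in mural cells, and 69.2 and 103 CPM in macrophages, the last from 6 and 11 UMIs. Lens pools lay below all others, and the endothelial and mural ranges overlapped. The log2 fold change over lens cells was 1.83 ± 0.19 in endothelial, 1.83 ± 0.28 in mural and 2.73 ± 0.49 in macrophages (adjusted p = 4.64e-09, 3.65e-06 and 5.41e-05, edgeR). The 3 differences among the non-lens types did not pass (adjusted p from 0.144 to 1, edgeR).

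S100a4, which binds nonmuscle myosin IIA, was higher in lens cells than in endothelial and mural cells. Lens cells held 18.9 and 19.6 CPM from 1350 and 1252 UMIs. Endothelial cells held 3 UMIs in each pool, a ratio to lens cells of 0.130 (exact 95% counting interval 0.0478 to 0.284), and mural cells held 1 and 0 UMIs, a ratio of 0.0522 (interval 0.00132 to 0.291). Both were below lens cells by the test (adjusted p = 1.44e-06 and 9.77e-05, edgeR). The alpha crystallins, capped by the gate, stood at 2.10% to 4.65% of their lens level in these cells. With the lens profile subtracted in proportion to them both calls stayed, but subtraction can only lower these counts. How many of the few S100a4 UMIs were free lens RNA was not tested. Macrophages held 0 UMIs in pool 1 and 5 in pool 2, a ratio to lens cells of 1.34 (interval 0.436 to 3.14). Their difference from lens cells did not pass the test (0.18 ± 0.76, adjusted p = 0.886, edgeR). All 5 macrophage UMIs of S100a4 came from 1 cell, which also carried all 4 macrophage UMIs of S100a6 and 9 of the 10 macrophage markers. The calls of S100a4 above endothelial and mural cells in macrophages (adjusted p = 0.0256 and 0.0180, edgeR; 23.5% and 26.1% of all genes called, 11.1% and 11.8% higher and 12.4% and 14.3% lower) rest on that cell, and both are lost without the crystallin ceiling on the gate (adjusted p = 0.254 and 0.111, edgeR). Likewise the macrophage S100a6 values of 0 and 37.6 CPM come from that cell alone.

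S100a8 and S100a9 were nearly absent from the 4 cell types. Lens cells held 1 UMI of S100a8 and 5 of S100a9 in pool 1 and 0 in pool 2, and endothelial cells, mural cells and macrophages held 0 of either. For macrophages, 0 of 193158 UMIs allows up to 15.5 CPM, and for endothelial cells 0 of 2386630 allows up to 1.26 CPM. The transcripts were instead concentrated in 2 barcodes of pool 1 that passed the neutrophil gate. The first, with 1914 UMIs, held 136 UMIs of S100a8 and 223 of S100a9, or 7.11% and 11.7% of its total, and 8 of the 10 neutrophil markers. The other, with 1077 UMIs, held 53 and 93 UMIs, or 4.92% and 8.64%, and 3 neutrophil markers. Neither carried a macrophage marker. No barcode passed the neutrophil gate in pool 2, so this rests on 1 pool.

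S100b, a member abundant in glia, was detected by 13 and 12 UMIs among lens cells and by 0 in the other 3 types. No barcode met the glial gate. Of the 7 further S100 genes in the files (S100a2, S100a3, S100a5, S100a7a, S100a14, S100g and S100z), none exceeded 3 UMIs in any class of cells in either pool.

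Within the lens cells, the members were followed along differentiation. Cells of each pool were ordered by the share of UMIs from 13 beta and gamma crystallin genes and cut into quintiles, and the score holds no S100 gene. The median share was 1.37% and 1.27% in the lowest quintile and 7.32% and 7.35% in the highest. S100a4, S100a16 and S100a6 rose with the score, S100a1, S100a10 and S100a11 fell, and S100a13 did not pass the test. That is 3 members higher and 3 lower, where 70.3% of 13086 genes were called (35.5% higher, 34.8% lower), so a call alone does not set the members apart. Their median log2 fold change was -0.09, beside -0.01 over all genes.

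**Figure D2:**
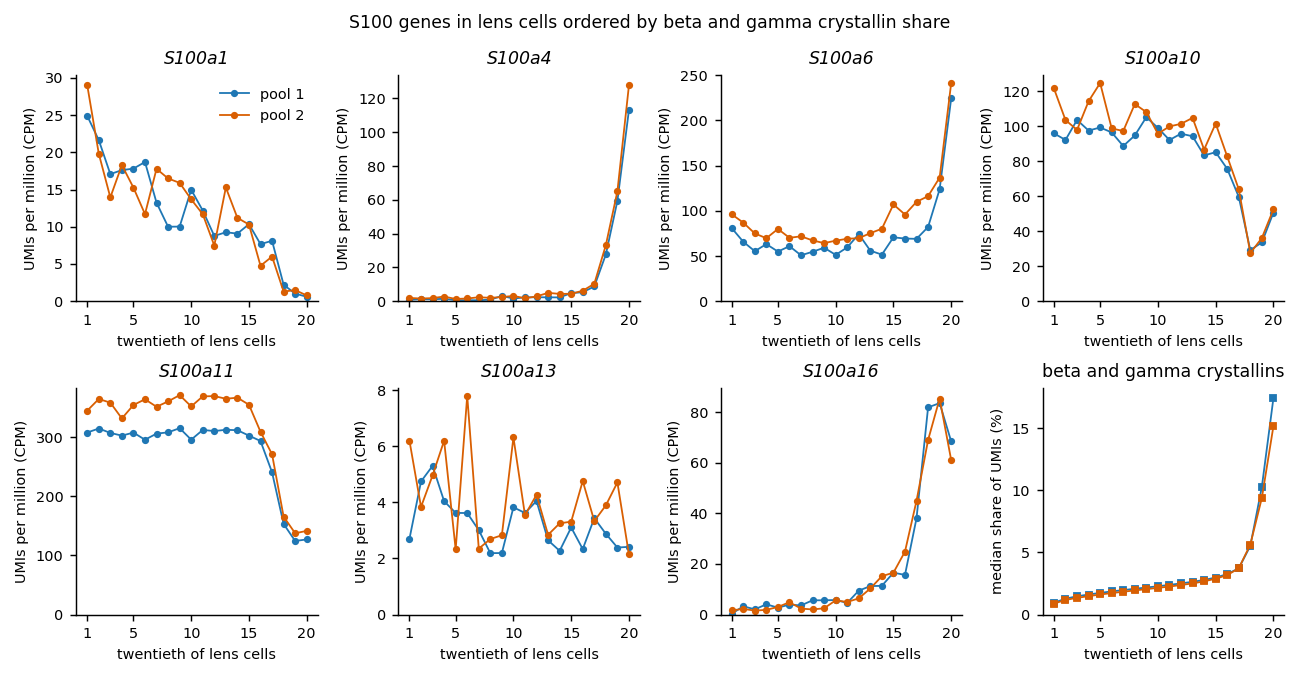
CPM of the 7 tested S100 genes in lens cells cut into 20 equal groups per pool by beta and gamma crystallin share, whose median is in the last panel; lines are the 2 pools. S100a4 climbed to 113 and 128 CPM in the last twentieth, S100a16 peaked before it at 83.6 and 85.4 CPM, and S100a1 and S100a11 fell.

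S100a4 and S100a16 rose most among the members, and which of them rose more turned between the pools in CPM (log2 ratios of 5.67 and 5.00 for S100a4, 4.85 and 5.17 for S100a16). In pool 1 the S100a4 level from the lowest to the highest quintile was 1.18, 0.68, 2.35, 3.66 and 61.9 CPM, and in pool 2 it was 2.05, 1.83, 2.56, 4.98 and 67.2 CPM. The step lay almost wholly between the next-highest and the highest quintile in both pools. The highest quintile held 92.7% and 89.5% of all lens UMIs of S100a4, where it held 28.4% and 26.2% of all UMIs. The log2 fold change was 5.86 ± 0.13 (adjusted p = 2.70e-27, edgeR). In twentieths of the cells, S100a4 was still at 8.74 and 10.3 CPM in the 17th, reached 27.7 and 33.2 CPM in the 18th, 59.4 and 65.0 CPM in the 19th and 113 and 128 CPM in the 20th.

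S100a16 rose earlier and more gradually. Its level over the quintiles was 2.43, 3.95, 6.32, 13.7 and 71.0 CPM in pool 1 and 1.82, 3.07, 4.86, 16.7 and 66.8 CPM in pool 2, each step upward in both pools. The log2 fold change between the end quintiles was 5.55 ± 0.12 (adjusted p = 1.02e-27, edgeR), and the highest quintile held 81.5% and 78.8% of its lens UMIs. In the 17th twentieth S100a16 was at 38.1 and 45.0 CPM, above S100a4 there. It stood at 83.6 and 85.4 CPM in the 19th and at 68.4 and 61.1 CPM in the 20th, where S100a4 was at its highest. S100a16 was the higher of these genes in the 19th twentieth of both pools and S100a4 in the 20th.

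S100a6 had a different shape, with a substantial level in all quintiles. Its values were 66.2, 55.3, 60.9, 61.7 and 139 CPM in pool 1 and 81.7, 72.3, 67.5, 89.4 and 159 CPM in pool 2. Its log2 fold change was 1.55 ± 0.06 (adjusted p = 1.05e-20, edgeR). The lowest twentieth stood at 81.0 and 96.2 CPM and the highest at 224 and 241 CPM.

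S100a1 fell along the score at every step in both pools, from 20.3, 14.97, 11.5 and 9.08 to 2.28 CPM in pool 1 and from 20.2, 15.3, 12.2 and 10.4 to 2.04 CPM in pool 2. Its log2 fold change was -2.68 ± 0.14 (adjusted p = 2.24e-17, edgeR). In the last twentieth it was at 0.603 and 0.778 CPM, against 24.9 and 29.0 CPM in the first. S100a10 and S100a11 dropped mainly in the highest quintile. S100a10 went from 97.3 to 42.3 CPM and from 109 to 44.2 CPM between the end quintiles (-0.71 ± 0.06, adjusted p = 6.97e-13, edgeR), and S100a11 from 308 to 150.0 CPM and from 350 to 169 CPM (-0.50 ± 0.04, adjusted p = 2.62e-13, edgeR). On TMM-scaled values S100a11 went from 270.0 to 196 and from 320 to 219. S100a13 stood at 4.20 and 2.67 CPM and at 5.30 and 3.48 CPM in the end quintiles, and its change of -0.09 ± 0.18 did not pass (adjusted p = 0.671, edgeR).

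Few single lens cells carried these members together. After thinning to 2000 UMIs, 28 of 9964 lens cells in pool 1 and 18 of 7222 in pool 2 carried both S100a4 and S100a16 (0.281% and 0.249%), where the product of their shares gives 0.0750% and 0.0725%. S100a1 and S100a4, which ran in opposite directions along the score, met in 0 and 1 cells, where the product gives 0.0519% and 0.0617%. S100a4 and S100a16 both lay mainly in the highest crystallin quintile. There the thinned shares were 9.52% and 9.54% for S100a4 and 12.9% and 11.6% for S100a16. A product taken over all lens cells does not allow for this, so it is no measure of how often 2 members meet within a quintile. These counts are descriptions, and overlap within the quintiles was not tested.

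Along the cell cycle, lens cells were ordered by the share of UMIs from 75 S and G2M phase genes. S100a4, S100a16 and S100a6 were lower in the highest quintile than in the lowest, S100a10 was slightly higher, and S100a1, S100a11 and S100a13 did not pass. Among all genes 56.8% were called (28.8% higher, 28.0% lower), beside 4 of the 7 members. The S100a4 level was 44.6 and 49.9 CPM in the lowest quintile and 1.13 and 1.16 CPM in the highest (-5.60 ± 0.16, adjusted p = 1.61e-08, edgeR), S100a16 went from 39.3 and 43.9 to 2.20 and 2.53 CPM (-4.40 ± 0.31, adjusted p = 1.27e-06, edgeR), and S100a6 from 124 and 149 to 42.9 and 55.6 CPM (-1.72 ± 0.07, adjusted p = 4.88e-08, edgeR).

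The cell cycle and crystallin scores are not independent. Of the cells in the lowest cell cycle quintile, 38.1% and 46.1% were in the highest crystallin quintile, against 0.693% and 0.476% of those in the highest. With the highest crystallin quintile left out and the quintiles drawn anew, a choice made after seeing the data, the changes shrank to -1.21 ± 0.33 for S100a4, -1.92 ± 0.26 for S100a16 and -0.88 ± 0.06 for S100a6 (adjusted p = 0.00866, 4.37e-05 and 7.96e-08, edgeR). All 3 remained lower. S100a1 then passed as lower (-1.07 ± 0.12, adjusted p = 8.50e-06) and so did S100a11 (-0.24 ± 0.05, adjusted p = 0.00159), whereas S100a10 no longer passed (0.04 ± 0.06, adjusted p = 0.584, all edgeR). The S100a10 rise of 0.30 ± 0.07 in all lens cells (adjusted p = 0.00275, edgeR) was also lost without the pool as a block (adjusted p = 0.0707, edgeR) and with cells thinned to 2000 UMIs (0.17, adjusted p = 0.174, edgeR). In all lens cells S100a11 passed as higher with 3 bins in place of 5 (0.18, adjusted p = 0.00215, edgeR), and S100a1 passed as lower with upper quartile scaling (-0.30, adjusted p = 0.0477, edgeR).

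**Figure D3:**
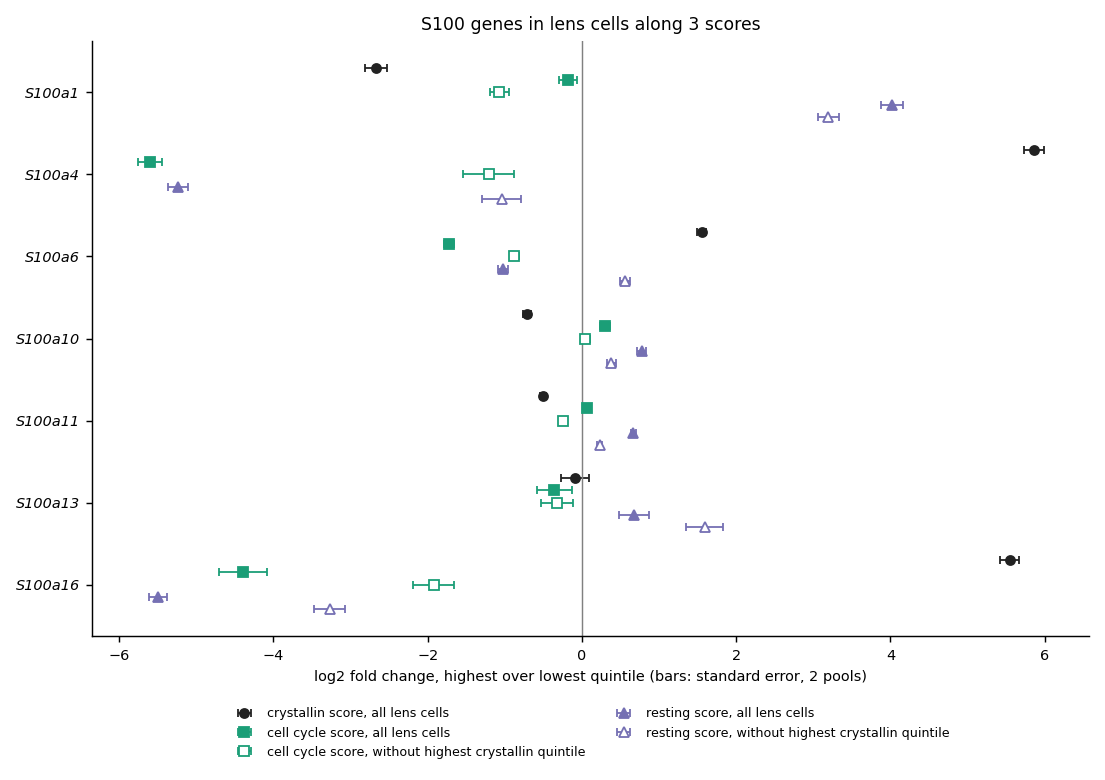
Log2 fold change (edgeR, ± SE, n = 2 pools) of each S100 gene between the highest and the lowest quintile of lens cells by crystallin, cell cycle and resting score; open symbols leave out the highest crystallin quintile. S100a4 and S100a16 lie at 5.86 and 5.55 along the crystallin score and below 0 along the other scores, and S100a6 changes side along the resting score when the highest crystallin quintile is left out.

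Another ordering used the share of UMIs from 10 genes named as markers of a lens epithelial cell group, among them Igfbp5, Slc7a11 and Folr1, and is called the resting score here. The study picked these genes from these same cells, so the score is not independent evidence of a direction. S100a1, S100a10, S100a11 and S100a13 were higher in the highest quintile and S100a4, S100a6 and S100a16 lower, beside 62.7% of all genes called (32.7% higher, 30.0% lower). S100a1 changed most among those that rose: over the quintiles it stood at 1.16, 3.096, 10.1, 20.7 and 26.8 CPM in pool 1 and at 1.45, 3.28, 9.33, 21.2 and 28.6 CPM in pool 2, upward at every step. Its log2 fold change was 4.02 ± 0.15 (adjusted p = 4.93e-16, edgeR).

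The other 3 that rose did so by less. S100a10 went from 44.2 and 46.6 to 99.2 and 105 CPM (0.77 ± 0.05, adjusted p = 6.00e-11, edgeR) and S100a11 from 152 and 177 to 321 and 364 CPM (0.67 ± 0.04, adjusted p = 1.15e-12, edgeR). S100a13 went from 2.36 and 2.85 to 4.58 and 6.40 CPM (0.68 ± 0.20, adjusted p = 0.00479, edgeR), a call lost with DESeq2 (adjusted p = 0.0863) and without the pool as a block (adjusted p = 0.0501, edgeR). Among those that fell, S100a16 went from 67.5 and 63.2 to 1.99 and 1.79 CPM (-5.50 ± 0.12, adjusted p = 9.29e-20, edgeR) and S100a4 from 59.6 and 65.3 to 1.81 and 2.54 CPM (-5.23 ± 0.13, adjusted p = 9.58e-19, edgeR).

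**Figure D4:**
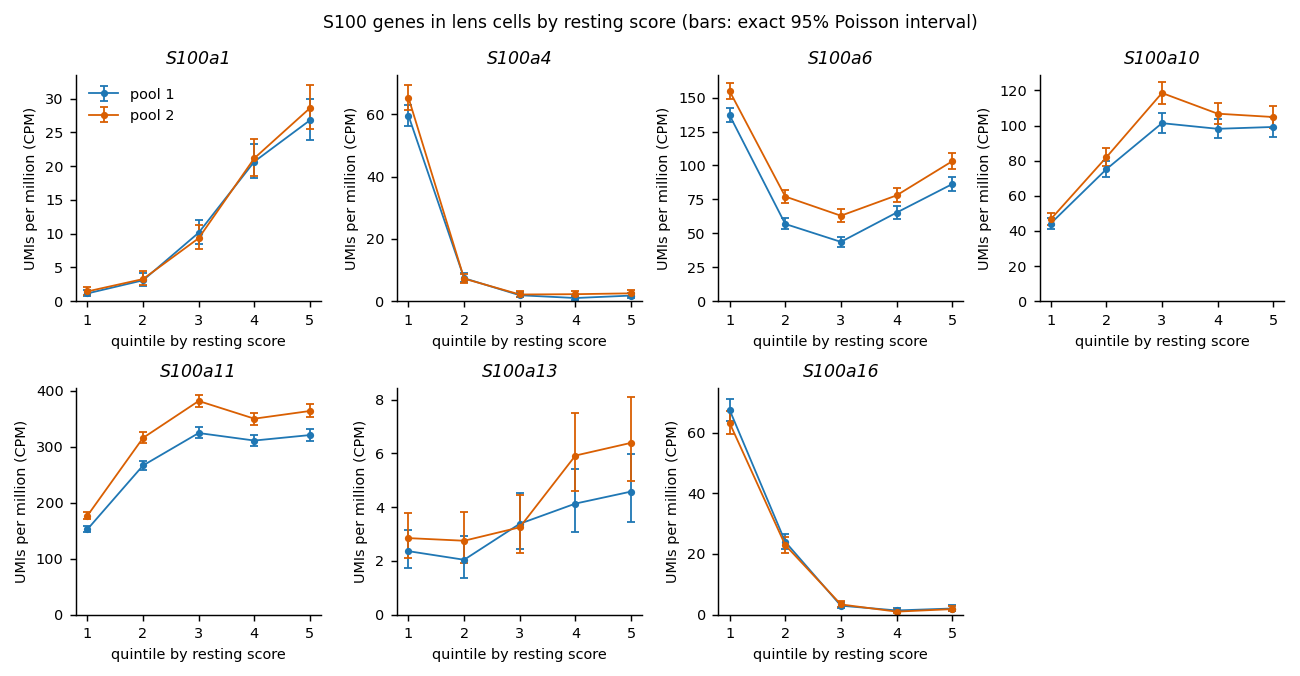
CPM of the 7 tested S100 genes in lens cells by quintile of the resting score, per pool, with exact 95% Poisson intervals (counting error only). S100a1 climbed from 1.16 and 1.45 to 26.8 and 28.6 CPM, S100a4 and S100a16 dropped within the first 3 quintiles, and S100a6 was lowest in the middle quintile, at 43.7 and 63.0 CPM.

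S100a6 took a bent course along the resting score. Its level was 137, 56.9, 43.7, 65.2 and 86.2 CPM in pool 1 and 155, 77.1, 63.0, 77.9 and 103 CPM in pool 2, lowest in the middle quintile of both pools. Between the end quintiles it fell by 1.02 ± 0.06 on the log2 scale (adjusted p = 6.36e-12, edgeR). Of the cells in the lowest resting quintile, 70.0% and 75.0% were in the highest crystallin quintile, against 3.22% and 2.04% of those in the highest. Without the highest crystallin quintile, again a choice made after seeing the data, S100a6 turned from lower to higher, at 0.56 ± 0.07 (adjusted p = 4.61e-07, edgeR), with 58.1 and 74.2 CPM in the lowest and 90.6 and 106 CPM in the highest quintile. The other 6 members kept their direction and their call there. S100a1 stood at 3.19 ± 0.13, S100a13 at 1.59 ± 0.24 and S100a16 at -3.27 ± 0.20 (adjusted p = 2.35e-14, 1.10e-05 and 1.47e-11, edgeR). In proportion the sizes shrank most for S100a4, to -1.04 ± 0.26, S100a10, to 0.38 ± 0.06, and S100a11, to 0.23 ± 0.04 (adjusted p = 0.00218, 1.51e-05 and 1.38e-05, edgeR). The 3 scores use the same lens cells, and their results are not separate support for each other.

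Profiles most like each member were sought over 16 profiles (both pools of the endothelial, mural and macrophage sums and of the 5 crystallin quintiles) among 9703 genes, by Pearson's r of log2(CPM + 1). The profiles share libraries and differ in depth, so r is a description only. S100a13 came closest to Ralb (r = 0.995), Adcy4 and Rasgrp3, and S100a1 to Rbms1 (r = 0.981), Nfkbiz and Mier1. Among the 3 genes nearest to S100a11 were Abhd8 (r = 0.982) and Airn (r = 0.975). S100a16 came closest to Synm (r = 0.963), Sorbs2 and Plec, S100a6 to Tpmt (r = 0.948), C1qtnf12 and Tmem29, S100a10 to Rpl12 (r = 0.936), Phldb1 and Zc3h12c, and S100a4 to Lyzl4 (r = 0.899), Tdrd7 and Tnfrsf12a. Among the members themselves, the neighbours S100a1 and S100a13 had r = 0.822, and S100a6 and S100a11 had r = 0.785. S100a4 and S100a16, alike within lens cells, had r = 0.185 over the 16 profiles, with S100a16 high in endothelial cells and S100a4 not.

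Binding partners of S100 proteins were measured from a list of 10 genes, all tested. In endothelial and in mural cells 6 were higher and 2 lower than in lens cells. Over all genes, 29.1% and 25.8% were higher and 34.1% and 26.2% lower. Anxa1, the partner of S100a11, was lower outside the lens: 1007 and 1067 CPM in lens, 83.9 and 97.5 CPM in endothelial and 231 and 264 CPM in mural cells (log2 fold change -3.84 and -2.30 against lens). Anxa2, the partner of S100a10, stood at 125 and 101 CPM in lens, 573 and 475 CPM in endothelial and 413 and 288 CPM in mural cells (1.90 and 1.39 against lens). Plat, tissue plasminogen activator, which binds the S100a10 complex, stood at 616 and 627 CPM in mural cells and 3.66 and 3.03 CPM in lens cells. Myh9, the heavy chain that S100a4 binds, was higher in endothelial and mural cells than in lens cells (1.62 and 2.70), the reverse of S100a4.

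In lens cells the partners moved in both directions. Along the crystallin score 4 of 10 rose and 5 fell, beside 70.3% of all genes called, with Anxa6 at 0.83 and Plat at -2.33, Anxa1 at -2.03 and Anxa2 at 0.33 on the log2 scale. Along the cell cycle score 5 rose and 3 fell, beside 56.8% called, from Anxa11 at 1.12 to Anxa2 at -0.99. Along the resting score 7 rose and 3 fell, beside 62.7% called, with Plat at 2.83 and Anxa1 at 2.51 at one end and Sugt1 at -0.47 at the other.

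Cell-surface receptors that S100 proteins can bind were few, and 3 of the 4 listed were tested between cell types. Ager, the receptor for advanced glycation end products, stood at 3.46 and 3.41 CPM in lens cells, at 5.50 to 11.9 CPM in endothelial and mural cells, and at 0 UMIs in macrophages, and was too low for that test. Along the crystallin score Ager fell by 0.57 on the log2 scale, and along the resting score it rose by 0.82. Tlr4, a toll-like receptor engaged by S100a8 and S100a9, stood at 92.2 and 18.8 CPM in macrophages, from 8 and 2 UMIs, at 14.3 and 38.2 CPM in mural cells and at 4.13 and 5.36 CPM in endothelial cells, and held 1 and 0 UMIs in lens cells. Its macrophage and mural levels overlapped, and their difference did not pass the test (adjusted p = 0.413, edgeR). Cd36, a scavenger receptor, stood at 231 and 179 CPM in macrophages and held 1 UMI in lens cells and 0 in endothelial and mural cells. Bsg (basigin) was present in all types and lower in endothelial (-1.44), mural (-1.497) and macrophage cells (-1.69) than in lens cells.

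Other EF-hand genes were taken as a wider set of 17, of which 13 were tested. Against lens cells 1 was higher and 8 lower in endothelial cells, and 5 were higher and 4 lower in mural cells. In macrophages 2 were higher and 5 lower. Over all genes, 29.1%, 25.8% and 15.7% were higher and 34.1%, 26.2% and 19.9% lower in these comparisons. Rcn1, a reticulocalbin, was the lowest in endothelial cells (-3.46). Efhd2 was the highest in mural cells (3.84) and in macrophages (3.62). Along the crystallin score 8 rose and 4 fell, beside 35.5% of all genes higher and 34.8% lower, from Rcn1 at 1.40 to Efhd2 at -0.90, and the median was 0.42, beside -0.01 over all genes.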

How the data were processed

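Libraries were made from dissociated P2 lens epithelium with a droplet kit that reads the 3′ end of transcripts, and per the file headers the authors counted reads with Cell Ranger 6.1.1 on mm10. The deposited values are raw UMI counts per gene and barcode for 2 pools (93839132 and 86033032 UMIs), used as deposited. The members, the gene lists and the promoter motifs were chosen with earlier results of these data known, and the resting genes come from the study's own markers.

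Barcodes were first limited to the 2nd to 97th percentile of genes (446 to 4261) and UMIs (949 to 20198), and to at most 15% mitochondrial UMIs. These barcodes were scored with Scrublet (scanpy 1.11.5), the top 8% of scores per pool were removed, and the rest were kept. An endothelial, mural, macrophage or neutrophil cell carried at least 3 of 10 markers, under 3 of each other list, under 10% hemoglobin and under 1% of UMIs from Cryaa and Cryab. A lens cell carried at least 1% from them and under 3 markers of each list. Another 70 barcodes per pool were left out as mixed. They carried at least 3 markers of more than 1 list, or of 1 list with at least 1% of UMIs from Cryaa and Cryab. Counts were summed per pool and class and tested with edgeR 4.0.16 (TMM, expression filter, quasi-likelihood test, Benjamini-Hochberg adjustment, R 4.3.3), with pool as a block because the classes of 1 pool share animals. Gate and score genes were left out of tests. Named genes are the 10 members, the list members with the largest or smallest change or a stated partner, and the 3 nearest profiles per member. Partners were named after their values were seen, and results for a few other genes are not reported here. In simulated sums with few changed genes, a common spread and no pool difference, the endothelial test recovered all seeded changes and the crystallin test most of them. The data differ from that setting, with 63.2% and 70.3% of genes called, so the simulation does not vouch for the calls there. Alternatives were DESeq2 1.42.0, upper quartile scaling, other gates and filters, thinning, subtraction of the lens profile in proportion to Cryaa and Cryab, and each pool alone. Intervals cover counting error only. The p-values rest on the spread that remains once the pool difference is removed, estimated over all sums of a fit and shared across genes. The SE is the absolute log2 fold change divided by the square root of the test's F statistic.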

Additional observations from a re-analysis of the deposited data

Results flagged for a closer look

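In sets of barcodes that no comparison used, some members held more than 3 UMIs and stood above each of the 4 compared cell types of the same pool. In the 2 neutrophil-gated barcodes of pool 1, S100a8 held 189 UMIs (63190 CPM), S100a9 held 316 UMIs (105650 CPM), S100a11 held 14 UMIs (4681 CPM, where mural cells stood at 1076) and S100a6 held 7 UMIs (2340 CPM, where mural cells stood at 115). In the 3 barcodes of pool 2 that met no gate, S100a6 held 9 UMIs, S100a11 held 9 UMIs (1471 CPM, where mural cells stood at 1171), S100a4 held 4 UMIs and S100a10 held 4 UMIs. All of this S100a4, S100a6 and S100a11 came from 1 barcode of 3655 UMIs, which also held 1 endothelial and 1 macrophage marker, and no mural, neutrophil or fibroblast marker. Another 3 values were seen in pool 1. S100a10 held 4 UMIs in the 5 erythroid barcodes (126 CPM, where endothelial cells stood at 96.99). In the 70 mixed barcodes S100a4 held 8 UMIs (19.6 CPM, where lens cells stood at 18.9). S100a6 held 52 UMIs in the same barcodes (128 CPM, where mural cells stood at 115). None of these 11 values was seen in both pools, so there is no replicate.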

How the results depend on the processing

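Of 792 member fold changes recomputed under an alternative, 13 lost and 4 gained the call, 21 changed sign, and 754 were counted as unchanged. The 792 include each pool alone, which has no p-value and counted as changed only where a called member turned sign. Turns of uncalled members in 1 pool are thus among the 754 and not listed below. For S100a10 in endothelial against lens cells, the pools gave 0.30 and 0.11 on the CPM scale, against -0.11. With cells thinned to 2000 UMIs, 6727 genes were tested between types, against 9528, and the share called moved from 63.2% to 57.7% between endothelial and lens cells and from 34.1% to 31.6% between mural and endothelial cells. The genes called fell to 3879 (endothelial against lens), 2123 (mural against endothelial), 1448 and 1651 (macrophage against endothelial and mural), 5699 (crystallin), 4113 (cell cycle) and 4785 (resting). DESeq2 called 4453 genes along the cell cycle. Between macrophages and mural cells 2 members were called with thinning and 2 without the crystallin ceiling, against 4. Thinning moved 20 of 28 shares of cells with a UMI. It keeps fewer UMIs and leaves fewer genes to test, and for the others the cause was not tested.

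Sign changes outside the threshold were found for S100a1, mural against endothelial (-0.027 with doublets kept, -0.011 without barcodes under 1% mitochondrial UMIs, -0.016 with DESeq2, -0.082 with upper quartile scaling, -0.035 thinned, -0.26 without the ceiling), S100a16, mural against lens (-0.14 with no upper limit, -0.027 with upper quartile scaling, -0.10 with 4 markers), S100a4, macrophage against lens (-0.36 with no upper limit, -0.074 with no filter, -0.15 without the ceiling), S100a10, endothelial against lens (0.059 without the ceiling), S100a6 and S100a10 in thinned macrophages (-0.12 against endothelial, -0.47 against mural), S100a13 along a non-crystallin differentiation score (0.16) and, along the cell cycle, S100a1 in 3 bins (0.080) and S100a11 (-0.060 with upper quartile scaling, -0.057 thinned). Without the highest crystallin quintile, S100a11 turned to -0.24 along the cell cycle and S100a6 to 0.56 along the resting score.

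Upper quartile scaling shifted the median of all genes by -0.12 along the cell cycle, with 2974 genes higher and 4722 lower against 3763 and 3659. DESeq2 shifted it by 0.23 between macrophages and lens cells, with 1816 higher and 1269 lower against 1499 and 1897, and by 0.12 in mural against lens and macrophage against endothelial. Fits with no replicate block lost 2 member calls, S100a10 along the cell cycle (0.30) and S100a13 along the resting score (0.69), and changed no other. Each pool alone gave the direction of each member call except S100a4 in macrophages, at 0 UMIs in pool 1, and no test was possible on 1 pool. Subtraction of the lens profile lost the call of S100a10 in macrophages below endothelial cells. The value was -1.54 (adjusted p = 0.0691, edgeR), against -1.56 (adjusted p = 0.0422, edgeR) in the main fit. Macrophage values rest on 47 cells.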
